A study of Mus musculus with 2 samples.

Results

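A set of 10 genes of glucose uptake and glycolysis was followed through the lymphocytes of the aged mouse gut: the glucose transporter genes Slc2a1 and Slc2a3, the enzyme genes Hk1, Hk2, Pfkp, Aldoa, Tpi1, Pgk1 and Ldha, and Hif1a, the regulator that many of them answer to. They are 10 of the 23679 genes in the deposited tables and were chosen by name, as the steps that carry glucose into the cell and on to lactate. Each had at least 1 UMI (unique molecular identifier, a count of 1 captured transcript) in the kept cells of both samples. The study profiled ILC3s, the group 3 innate lymphocytes, which lack rearranged antigen receptors and release interleukin-22 (IL-22) in the gut wall, and its title concerns the CpG-binding protein gene Cxxc1 in these cells with age. The cells were sorted from the small intestine of male C57BL/6 mice aged 18 months and captured on the BD Rhapsody system. The data form 1 group of n = 2 samples, tag 6 (replicate 1) and tag 12 (replicate 2), each from its own library. The labels name no genotype and do not say whether the replicates were separate animals. The p-values thus measure only how far differences between cell groups varied between these 2 samples, after their overall difference was taken out. That spread may be technical.

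Glycolysis breaks glucose down to pyruvate in the cytosol. Transporters of the SLC2A family bring glucose in, hexokinases trap it by adding a phosphate, phosphofructokinase commits it to breakdown, and lactate dehydrogenase turns the resulting pyruvate into lactate. HIF-1α, the product of Hif1a, is degraded when oxygen is plentiful and otherwise activates many genes of this pathway, and in activated mouse ILC3s mTOR and HIF-1α are known to support glycolysis and cytokine release.

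Kept were cells in which 300 genes or more were detected and mitochondrial transcripts made up no more than 25% of UMIs, 3337 cells in replicate 1 and 3840 in replicate 2, with 6939790 and 6810214 UMIs and medians of 1880.0 and 1674 UMIs per cell. Cells with at least 1 UMI of Cd3d, Cd3e or Cd3g, subunits of the T cell receptor complex, formed the Cd3-positive group (1149 and 1117 cells). The Cd3-negative cells were split into Ncr1-positive cells (608 and 438), cells with a UMI of Ccr6 or Cd4 and none of Ncr1 (128 and 79, called Ccr6/Cd4-positive) and the other Cd3-negative cells (1452 and 2206). Ncr1 encodes the receptor NKp46 of one mouse ILC3 subset, and Ccr6 and Cd4 mark the lymphoid tissue inducer-like subset. Since 1 UMI decides a group, shallower cells fall more easily into the other Cd3-negative group, whose median was 1725 and 1579 UMIs, against 2045 and 1860 in Ncr1-positive cells, 1629 and 1670 in Ccr6/Cd4-positive cells and 1991 and 1769 in Cd3-positive cells. Between the libraries 10 cell indices were shared.

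Levels below are in CPM, UMIs per 1000000 UMIs of a cell group summed within each sample. The label ILC3 was checked against marker lists. The 10 ILC3 markers summed to 5995 and 6279 CPM in Cd3-positive cells and to 6991 and 6708 in Cd3-negative cells, so both carried the ILC3 program, and all 10 were detected in both. Within that list Kit stood at 90.7 and 79.0 CPM in Cd3-positive cells, against 422 and 315 in Ncr1-positive cells. The 10 T cell markers, none of them a Cd3 gene, summed to 3530 and 3076 CPM in Cd3-positive and to 1050 and 1191 in Cd3-negative cells. Cd3-positive cells are therefore called by their rule below, and by no cell type name. Replicate 1 held more transcripts of stromal markers (3824 against 105 CPM in replicate 2) and, as a sum, of immediate early and stress genes (12593 against 7817) over all its cells. Within the latter list the heat shock genes Hspa1a, Hspa1b and Dnajb1 were higher in replicate 2 in every group. In Ncr1-positive cells Hspa1a had 20.9 CPM in replicate 1 and 389 in replicate 2, and Hspa1b 19.4 and 577.

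Upstream sequences are shown for the 4 genes that passed the test between Cd3-positive and Cd3-negative cells, the widest contrast in these data, with the core motif bound by HIF-1 (ACGTG or GCGTG, on either strand, hence also CACGT or CACGC) in capitals. Each run is the 250 bases before the RefSeq start of the gene on GRCm38.p6, 5′ to 3′ on the strand of the gene.
Hk2 (chr6:82774455-82774704, - strand): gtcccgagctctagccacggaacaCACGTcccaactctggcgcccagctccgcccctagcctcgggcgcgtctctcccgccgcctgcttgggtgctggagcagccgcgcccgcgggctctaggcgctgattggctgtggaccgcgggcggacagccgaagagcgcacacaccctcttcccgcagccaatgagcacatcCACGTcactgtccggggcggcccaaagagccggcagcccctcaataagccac
Tpi1 (chr6:124814159-124814408, - strand): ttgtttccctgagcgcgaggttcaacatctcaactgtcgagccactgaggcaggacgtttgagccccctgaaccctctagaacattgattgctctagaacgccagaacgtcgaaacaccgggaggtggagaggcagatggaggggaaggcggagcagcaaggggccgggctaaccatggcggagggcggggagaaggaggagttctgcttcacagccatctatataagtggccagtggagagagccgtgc
Pfkp (chr13:6648772-6649021, - strand): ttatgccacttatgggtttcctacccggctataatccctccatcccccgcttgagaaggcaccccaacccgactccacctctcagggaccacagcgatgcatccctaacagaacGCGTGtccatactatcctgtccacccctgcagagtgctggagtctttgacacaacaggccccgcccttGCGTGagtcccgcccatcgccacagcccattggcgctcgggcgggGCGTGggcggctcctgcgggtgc
Hif1a (chr12:73907617-73907866, + strand): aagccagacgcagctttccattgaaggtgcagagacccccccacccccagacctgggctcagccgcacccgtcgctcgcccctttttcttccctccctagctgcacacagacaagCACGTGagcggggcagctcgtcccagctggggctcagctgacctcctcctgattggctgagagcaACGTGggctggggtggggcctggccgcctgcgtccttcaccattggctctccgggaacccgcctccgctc
The Hk2 window held 2 matches, the Pfkp and Hif1a windows 3 each and the Tpi1 window 0. A CACGTG counts as 2 matches, 1 per strand, and is also the E-box bound by factors such as MYC. Over 32851 windows of this length, 38.6% held at least 1 match, 16.7% at least 2 and 6.58% at least 3. Promoter windows were found for 9 of the 10 genes, 13 windows in all, and 10 of these held a match. Hk1, Aldoa and Ldha had more than 1 window each, so the windows are not independent. The Aldoa windows at chr7:126799255-126799504 and chr7:126799179-126799428 overlapped and held the same CACGT. A match describes letters in a window and is not a binding site.

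Of the UMIs of the 10 genes, 39.6% came from Hk2 and 24.2% from Aldoa, so their sum follows mainly these genes. The summed level was highest in Ncr1-positive cells, at 2577 CPM in replicate 1 and 2568 in replicate 2, then 2331 and 2423 in the other Cd3-negative cells. Cd3-positive cells had 2102 and 2152, and Ccr6/Cd4-positive cells 1728 and 1981. Each group lay above the next in this order in both samples without overlap. The same order held after cells of at least 1000 UMIs were thinned to 1000. Their groups were set before thinning, so this does not cover the effect of depth on the grouping. The separation also depends on the scaling. With the TMM factors of the tests below, added after the data were seen, the sum was 2532 and 2651 in Ncr1-positive cells, 2247 and 2701 in other Cd3-negative cells and 2103 and 2354 in Cd3-positive cells, which overlapped with their neighbours, and 1568 and 1831 in Ccr6/Cd4-positive cells, below all others. For single genes, 11 of the 30 neighbouring pairs in the 10 orders of levels did not overlap in plain CPM, and 9 did not with TMM factors. The levels that follow are plain CPM.

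**Figure D1:**
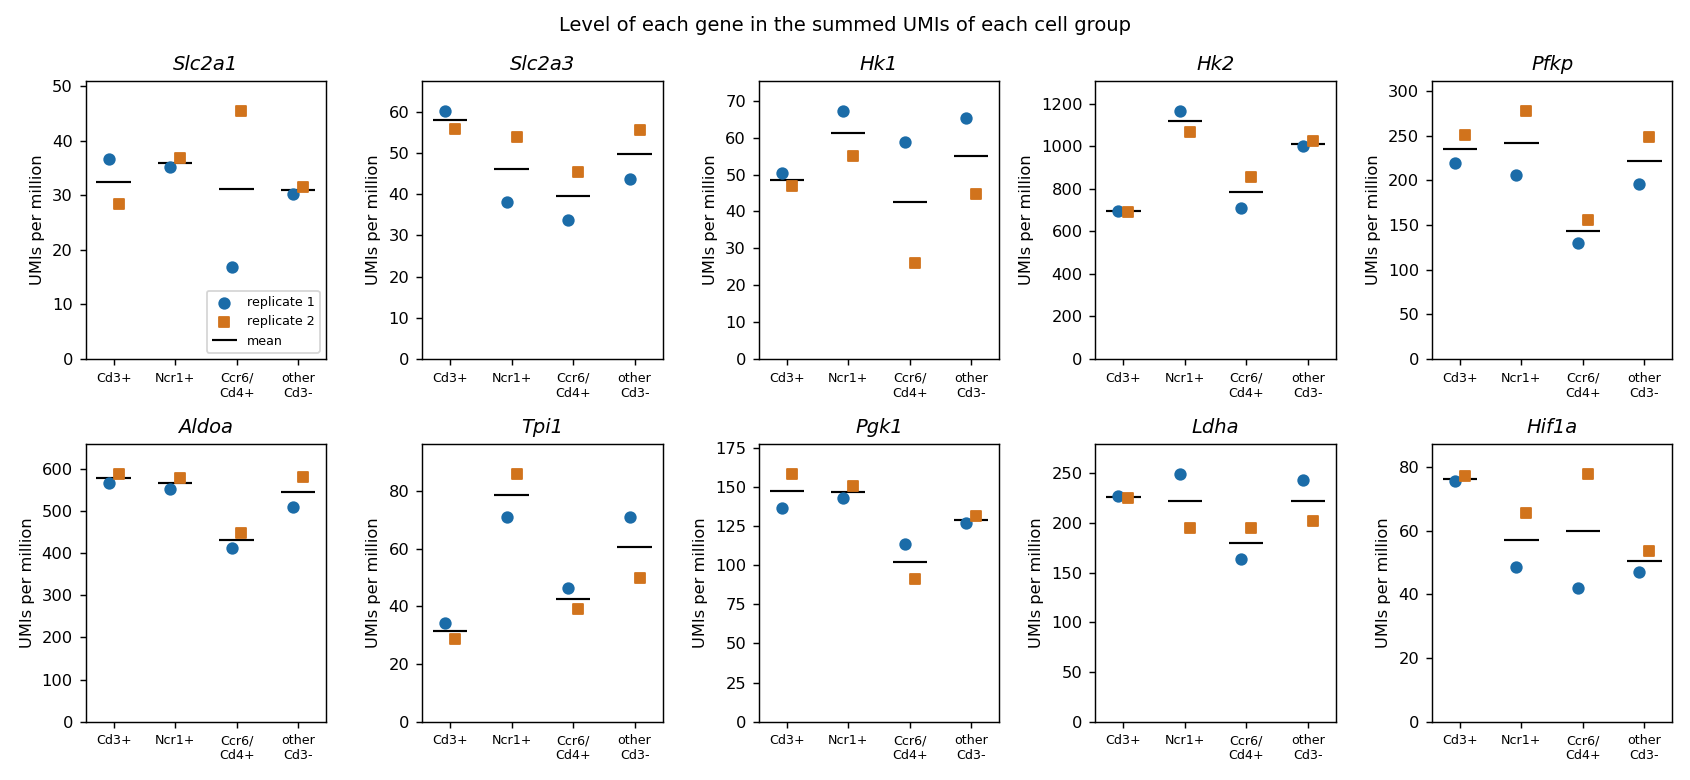
Level of each gene (CPM, linear axis from 0) in Cd3-positive, Ncr1-positive, Ccr6/Cd4-positive and other Cd3-negative cells, 1 panel per gene, with a point per replicate and a bar at the mean of 2. Hk2 is high in Ncr1-positive cells (1167 and 1068) and low in Cd3-positive cells (696 and 692), and Pfkp and Aldoa are lowest in Ccr6/Cd4-positive cells.

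The transporters showed small and overlapping differences. Slc2a1, which encodes GLUT1, the basal glucose transporter of many cells, had 36.6 and 28.4 CPM in Cd3-positive cells, 35.1 and 36.7 in Ncr1-positive, 16.8 and 45.5 in Ccr6/Cd4-positive and 30.3 and 31.6 in other Cd3-negative cells. No pair of neighbours in its order was separate, and the replicates of Ccr6/Cd4-positive cells spanned the values of all the others. Slc2a3, which encodes the high-affinity transporter GLUT3, had 60.2 and 55.8 CPM in Cd3-positive cells, 38.1 and 54.0 in Ncr1-positive, 33.6 and 45.5 in Ccr6/Cd4-positive and 43.8 and 55.6 in other Cd3-negative cells. Its Cd3-positive values lay just above the rest, which with TMM factors or after thinning they did not, and the 3 Cd3-negative groups overlapped. The log2 ratio of Slc2a3 in Cd3-positive over Cd3-negative cells was 0.46 ± 0.18 (SE, adjusted p = 0.0872), which did not pass 0.05.

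Hk1, the form found in most tissues, had 50.3 and 46.8 CPM in Cd3-positive cells, 67.3 and 55.1 in Ncr1-positive, 58.9 and 26.0 in Ccr6/Cd4-positive and 65.3 and 44.7 in other Cd3-negative cells, with overlap between all neighbours. Hk2, the inducible form that many activated and dividing cells raise, had 696 and 692 CPM in Cd3-positive cells, 1167 and 1068 in Ncr1-positive, 710 and 857 in Ccr6/Cd4-positive and 999 and 1025 in other Cd3-negative cells. In plain CPM all 4 groups were separate, in the order Ncr1-positive, other Cd3-negative, Ccr6/Cd4-positive and Cd3-positive. With TMM factors only the division into a high and a low pair was left: 1146 and 1103 in Ncr1-positive and 963 and 1143 in other Cd3-negative cells, which overlapped, above 696 and 757 in Cd3-positive and 645 and 792 in Ccr6/Cd4-positive cells, which overlapped too.

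Pfkp encodes the platelet form of phosphofructokinase. It had 219 and 251 CPM in Cd3-positive cells, 206 and 278 in Ncr1-positive, 130 and 156 in Ccr6/Cd4-positive and 196 and 249 in other Cd3-negative cells. Ccr6/Cd4-positive cells lay below the other 3 groups, which overlapped. Aldoa, the aldolase that splits fructose bisphosphate, had 567 and 588 CPM in Cd3-positive cells, 552 and 579 in Ncr1-positive, 412 and 448 in Ccr6/Cd4-positive and 509 and 581 in other Cd3-negative cells, with the same separation.

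Tpi1, the isomerase that interconverts the products of aldolase, had 34.3 and 28.9 CPM in Cd3-positive cells, 71.0 and 86.1 in Ncr1-positive, 46.2 and 39.0 in Ccr6/Cd4-positive and 71.2 and 49.8 in other Cd3-negative cells. Its Cd3-positive values lay below every other group, and Ncr1-positive and other Cd3-negative cells overlapped in plain CPM but not with TMM factors. After thinning to 1000 UMIs per cell, Cd3-positive and Ccr6/Cd4-positive cells overlapped too. Pgk1, an ATP-producing kinase of the pathway, had 136 and 158 CPM in Cd3-positive cells, 143 and 150 in Ncr1-positive, 114 and 90.9 in Ccr6/Cd4-positive and 127 and 131 in other Cd3-negative cells. The Cd3-positive and Ncr1-positive values overlapped and lay above the other Cd3-negative cells, which lay above the Ccr6/Cd4-positive cells. With TMM factors Ncr1-positive and other Cd3-negative cells overlapped, and after thinning Cd3-positive and other Cd3-negative cells did. Pgk1 is the X-linked member of the set.

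Ldha, which turns pyruvate into lactate, had 227 and 225 CPM in Cd3-positive cells, 250 and 195 in Ncr1-positive, 164 and 195 in Ccr6/Cd4-positive and 243 and 202 in other Cd3-negative cells. Ccr6/Cd4-positive cells lay below the others, which overlapped, and replicate 2 of Ccr6/Cd4-positive cells was within 1 CPM of replicate 2 of Ncr1-positive cells. After thinning, Ccr6/Cd4-positive cells (185 and 203) and Ncr1-positive cells (243 and 198) overlapped. Hif1a had 75.5 and 77.1 CPM in Cd3-positive cells, 48.6 and 65.5 in Ncr1-positive, 42.0 and 77.9 in Ccr6/Cd4-positive and 47.1 and 53.7 in other Cd3-negative cells. Cd3-positive cells were above Ncr1-positive and other Cd3-negative cells in both samples, and the wide span of Ccr6/Cd4-positive cells overlapped them, though not the Cd3-positive cells with TMM factors. Hif1a measures transcript only, while HIF-1α is largely controlled as a protein.

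Near-copies can share reads with several of these genes, and how the pipeline treats such reads is not given in the sources used here. Aldoart1 and Aldoart2, retrogenes of Aldoa, had 15 and 2 UMIs against 7669 for Aldoa, and Hk1os, on the strand opposite Hk1, had 18 against 730 for Hk1. In GENCODE M21 on GRCm38 the name Aldoa covers 2 neighbouring genes on the minus strand of chromosome 7, at chr7:126795234-126800751 and chr7:126800790-126809108. Slc2a3, Tpi1 and Hk2 are all on the minus strand of chromosome 6, at chr6:122727809-122801640, chr6:124810586-124814296 and chr6:82725025-82774454. Pfkp is at chr13:6579768-6648777 (minus strand) and Hif1a at chr12:73901375-73947530 (plus strand).

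Differences between groups were tested with edgeR on the summed counts of each group and sample, with the sample as a block and p-values adjusted over all 9637 genes tested. The block fits a design in which all groups of a sample come from the same library. Without it no call on the 10 genes was left in any comparison.

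In Ncr1-positive over Ccr6/Cd4-positive cells, Hk2, Pfkp and Aldoa rose and none of the 10 fell. The share of all genes called higher was 2.35% (226 genes) and the share called lower 2.27% (219 genes). Hk2 was 1.53-fold higher in Ncr1-positive cells, with a log2 ratio of 0.61 ± 0.12 (SE, adjusted p = 0.00141) and single-sample values of 0.83 and 0.48. Pfkp was 1.77-fold higher (0.83 ± 0.19, adjusted p = 0.0109), with single-sample values of 0.77 and 0.99. Aldoa was 1.39-fold higher (0.48 ± 0.13, adjusted p = 0.0378), with single-sample values of 0.53 in both. All 3 were higher in Ncr1-positive cells of 2 of 2 samples.

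The other 7 genes did not pass the test. Tpi1 had a log2 ratio of 0.92 ± 0.37 (adjusted p = 0.199), Pgk1 0.56 ± 0.24 (adjusted p = 0.223) and Ldha 0.43 ± 0.20 (adjusted p = 0.275), with unadjusted p below 0.05 in each. The remaining 4, Slc2a1, Slc2a3, Hk1 and Hif1a, ran between 0.06 and 0.52 with SEs of 0.34 to 0.47. The median of the 10 genes was 0.50, against 0.09 over all genes tested. The call on Aldoa was lost with DESeq2 (adjusted p = 0.0764), with the stricter cell filter of at least 500 genes and at most 10% mitochondrial UMIs (0.0601) and with cells thinned before grouping (0.119), and that on Pfkp when T cell receptor chain genes also set the Cd3-positive group (0.0947).

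Other transcripts moved with this contrast. The 9 immediate early and stress genes summed to 11327 and 8310 CPM in Ncr1-positive cells, against 19061 and 11036 in Ccr6/Cd4-positive cells. Stromal markers summed to 3199 and 35.6 in Ncr1-positive and to 521 and 26.0 in Ccr6/Cd4-positive cells, and B or plasma cell markers to 5170 and 4464 against 1917 and 39.0. Markers of ILC1 or NK cells, a list that holds Ncr1 itself, summed to 1170 and 933 CPM in Ncr1-positive and to 223 and 435 in Ccr6/Cd4-positive cells. All 9 immediate early and stress genes were detected in both groups and samples. Without the cells that carried at least 2 UMIs of stromal, B or plasma, myeloid or epithelial genes, the count was again 3. The part of the immediate early and stress genes in the result was not tested.

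Against the other Cd3-negative cells, no gene of the 10 was called in Ncr1-positive cells by edgeR or by DESeq2, and none had an unadjusted p below 0.05. Of all genes, 1.21% (117 of 9637) were called, 0.083% higher and 1.13% lower. The log2 ratio of Hk2 was 0.13 ± 0.10 (adjusted p = 0.869), with single-sample values of 0.25 and -0.05, so with the TMM factors of the test the samples differed in direction. The other 9 ran from -0.16 to 0.35 with SEs of 0.10 to 0.23. Ncr1-positive and other Cd3-negative cells were thus not told apart by these genes at this depth, with 608 and 438 against 1452 and 2206 cells.

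**Figure D2:**
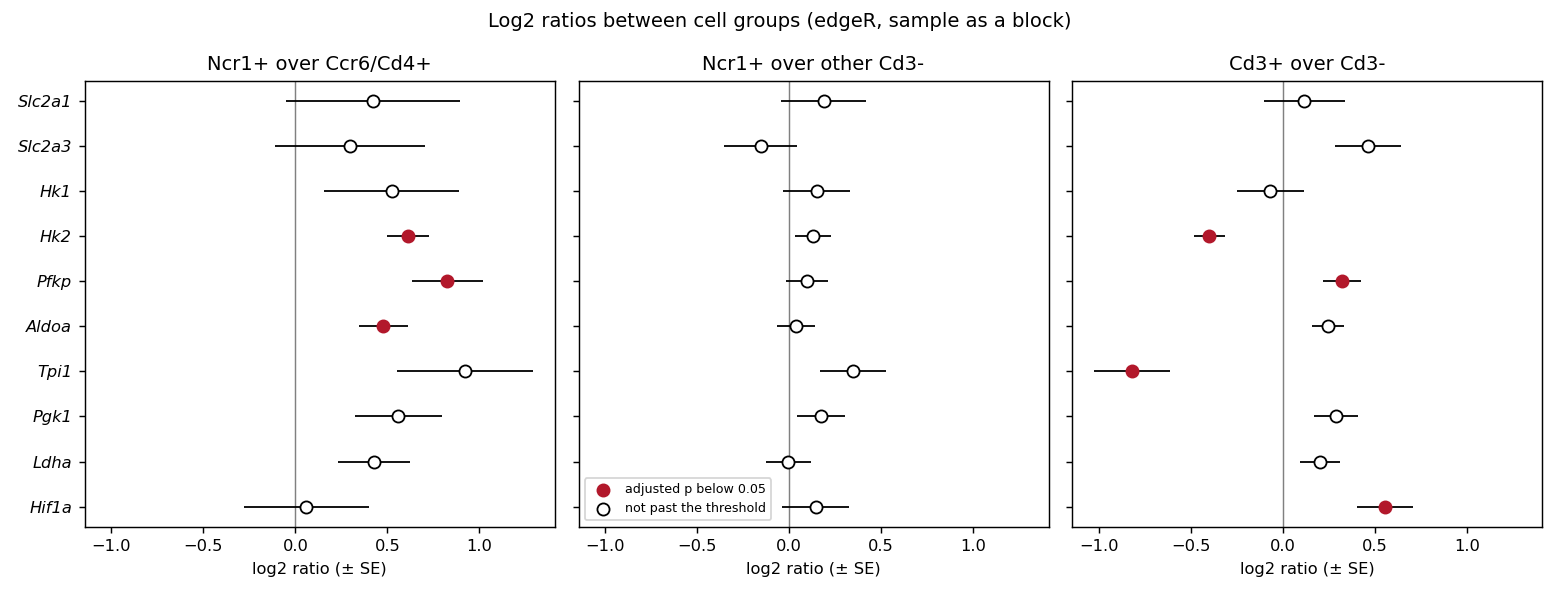
Log2 ratios ± SE (edgeR, sample as a block, n = 2 samples) of the 10 genes in 3 comparisons, with filled points where the adjusted p was below 0.05. Hk2, Pfkp and Aldoa stand to the right in the first panel, no point is filled in the second, and in the third Hk2 (-0.40) and Tpi1 (-0.82) stand left of 0 while Pfkp (0.32) and Hif1a (0.55) stand right.

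In Cd3-positive over Cd3-negative cells the set divided. Hif1a and Pfkp rose and Hk2 and Tpi1 fell, where 8.79% of all genes (847 of 9637) were called higher and 6.44% (621) lower. The Cd3-negative side here is the mean of its 3 groups on the log scale, each with equal weight. Hif1a was 1.47-fold higher (log2 ratio 0.55 ± 0.15, adjusted p = 0.0135), with single-sample values of 0.78 and 0.34. Pfkp was 1.25-fold higher (0.32 ± 0.10, adjusted p = 0.0372). Hk2 was 1.32-fold lower (-0.40 ± 0.08, adjusted p = 0.00124), with single-sample values of -0.36 and -0.40. Tpi1 was 1.77-fold lower (-0.82 ± 0.21, adjusted p = 0.00705), with -0.75 and -0.81. Every one of these 4 kept its direction in 2 of 2 samples.

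Aldoa (0.24 ± 0.09, adjusted p = 0.0588), Slc2a3 (0.46 ± 0.18, adjusted p = 0.0872) and Pgk1 (0.29 ± 0.12, adjusted p = 0.113) had unadjusted p below 0.05 and did not pass. Slc2a1, Hk1 and Ldha ran from -0.07 to 0.20 with SEs of 0.11 to 0.22. The median of the 10 genes was 0.22, against 0.05 over all genes tested. Immediate early and stress genes summed to 11473 and 6587 CPM in Cd3-positive cells, against 13274 and 8371 in Cd3-negative cells. B or plasma cell markers summed to 3401 and 290 CPM in Cd3-positive cells, against 5520 and 3442 in Cd3-negative cells, and ILC1 or NK cell markers to 1204 and 722, against 614 and 411. The part of the immediate early, stress and ILC1 or NK genes in the result was not tested. Without the cells of other types, 5 of the 10 genes were called.

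How the groups were drawn bears on all 4 calls. Against the other Cd3-negative cells alone, a comparison added after the data were seen, Hif1a (0.63), Hk2 (-0.52) and Tpi1 (-0.90) were called, while Pfkp was 0.11 (adjusted p = 0.599). Against 1 pooled sum of all Cd3-negative cells, the same 3 genes were called and Pfkp was 0.10. When T cell receptor chain genes (Trac, Trbc1, Trbc2 or Trdc) also made a cell positive, 2674 and 3015 cells were positive, none of the 10 genes was called and Hk2 was 0.01. The chain genes Trbc1 and Trbc2 were themselves found in Cd3-negative cells, while Trac was at 812 and 774 CPM in Cd3-positive and at 46.3 and 28.7 in Ncr1-positive cells. Trbc1 stood at 361 and 319 CPM in Cd3-positive cells and at 530 and 469 in Ncr1-positive cells. Trbc2 ran the other way, at 1163 and 1067 CPM in Cd3-positive and 486 and 473 in Ncr1-positive cells. Pfkp lost its call in 9 of 13 alternatives, among them DESeq2 (adjusted p = 0.115), the stricter cell filter (0.0737), no filter on low counts (0.0624), no cycling cells (0.0510) and cells thinned before grouping (0.173). The 13 include each sample alone, which gave no p-value and so could not lose a call. Hif1a lost its call with DESeq2 (adjusted p = 0.0847) and with the stricter cell filter (0.0587), and Tpi1 with cells thinned before grouping (adjusted p = 0.209).

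IL-22 is the signature cytokine of ILC3s, and its transcript differed between the groups. Il22 had 668 and 808 CPM in Cd3-positive cells, 2128 and 1999 in Ncr1-positive, 4792 and 4151 in Ccr6/Cd4-positive and 2236 and 2420 in other Cd3-negative cells. To relate the 10 genes to Il22 at equal depth, cells with at least 1000 UMIs were thinned to 1000 and sorted into Il22-zero (0 UMIs), Il22-low (1 to 3) and Il22-high (at least 4), which left out 186 and 313 shallower cells. Among Cd3-negative cells 390 and 471 were Il22-high, 578 and 637 Il22-low and 1069 and 1355 Il22-zero. Cells that should lack Il22 show how far other sources of its UMIs, such as free RNA or doublets, which were not told apart, reach into such a split. Among Cd3-negative cells with at least 20 UMIs of collagen genes and decorin, a threshold set after seeing the data, 8 of 48 and 1 of 5 held an Il22 UMI and 2 and 0 held at least 4, with median depths of 4351 and 2538 UMIs. Of the thinned cells, 21.5% and 19.4% of Cd3-positive and 47.5% and 44.99% of Cd3-negative cells held an Il22 UMI.

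Hk2 was the only one of the 10 genes called between Il22-high and Il22-zero cells among Cd3-negative cells, where 0.739% of all genes (53 of 7172) were called higher and 1.2% (86) lower, 1.94% in all. Hk2 had 1087 and 1336 CPM in Il22-high cells, against 1051 and 906 in Il22-zero cells. The groups did not overlap, but in replicate 1 they nearly met: the single-sample log2 ratios were 0.04 and 0.53, so replicate 2 carried the difference. The log2 ratio was 0.33 ± 0.09 (SE, adjusted p = 0.0325). The call was lost when the makeup of Il22-high cells by Ncr1, Ccr6 and Cd4 group was held fixed (0.21, adjusted p = 0.563), at either other threshold for Il22-high (0.23 at 8 UMIs and 0.25 at 2) and with DESeq2 (adjusted p = 0.535). Holding the makeup fixed gave each group equal weight, although Ccr6/Cd4-positive cells had only 30 and 20 Il22-high cells. The part of group makeup in the difference was not tested on its own.

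In finer steps of Il22, Hk2 rose without a break in replicate 2 only. Its level at 0, 1, 2 to 3, 4 to 7 and at least 8 Il22 UMIs was 906, 1016, 1067, 1318 and 1355 CPM in replicate 2. In replicate 1 it was 1051, 1160, 1043, 1195 and 934, with the lowest value at the highest step. The summed level of the 10 genes was 2353, 2478, 2574, 2814 and 2764 in replicate 2 and 2371, 2501, 2329, 2654 and 2212 in replicate 1. The highest step held 162 and 227 cells. Among Ncr1-positive cells alone the log2 ratio of Hk2 was 0.42 ± 0.15 (adjusted p = 0.380), among other Cd3-negative cells 0.32 ± 0.12 (adjusted p = 0.256) and among Ccr6/Cd4-positive cells -0.09 ± 0.31 (adjusted p = 0.969).

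**Figure D3:**
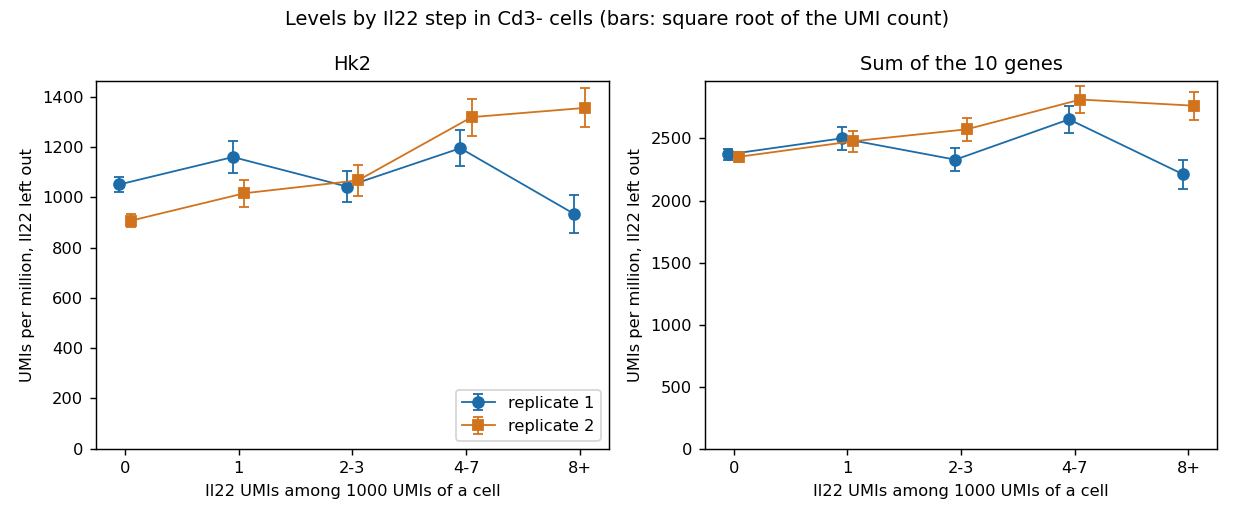
Level of Hk2 (left) and of the 10 genes summed (right) in Cd3-negative cells by Il22 UMIs among 1000 UMIs of a cell, in CPM without Il22, with a line per replicate and bars of the square root of the UMI count (counting error only). For Hk2 the highest step is at 934 in replicate 1 and at 1355 in replicate 2.

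The other genes showed no call along Il22 in Cd3-negative cells. Slc2a3 had 25.9 and 51.5 CPM in Il22-high cells, against 56.1 and 64.2 in Il22-zero cells, without overlap (log2 ratio -0.59 ± 0.28, adjusted p = 0.467). Hk1 had 85.4 and 47.2 in Il22-high cells, against 54.3 and 37.6 in Il22-zero cells, and the groups overlapped (0.52 ± 0.26, adjusted p = 0.513). The other 7 ran from -0.11 to 0.30. The median of the 10 genes was 0.14, against 0.00 over all genes tested. Immediate early and stress genes summed to 13885 and 7998 CPM in Il22-high cells, against 13114 and 8666 in Il22-zero cells, so their direction differed between the samples. ILC3 markers were higher in Il22-high cells of both samples, at 7485 and 7145 CPM, against 7084 and 6570 in Il22-zero cells. Several other lists were lower in both samples. T cell markers summed to 952 and 956 CPM in Il22-high cells, against 1180 and 1356 in Il22-zero cells. B or plasma cell markers summed to 1416 and 47.2 CPM in Il22-high cells, against 3640 and 1635 in Il22-zero cells, stromal markers to 668 and 21.4, against 2152 and 107, and ILC1 or NK cell markers to 404 and 289, against 794 and 506. Without the cells of other types the log2 ratio of Hk2 was 0.33 (adjusted p = 0.0127), and the part of the ILC1 or NK genes was not tested.

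Among Cd3-positive cells only 39 and 45 were Il22-high, against 875 and 858 Il22-zero. No gene of the 10 was called by edgeR or DESeq2, and none had an unadjusted p below 0.05, where 2.5% of all genes (179 of 7172) were called, 0.725% higher and 1.77% lower. Hk2 had 906 and 1099 CPM in Il22-high cells, against 710 and 678 in Il22-zero cells, without overlap. Its log2 ratio was 0.27 ± 0.17 (adjusted p = 0.515), measured against a median of -0.28 over all genes. With all UMIs of the same cells in place of 1000 per cell it was 0.47 (adjusted p = 0.0236). With Il22-high at 8 UMIs it was -0.12, but only replicate 2, with 28 cells, was left on the Il22-high side. The scaling matters here: with TMM factors 52 genes were called higher and 127 lower, and with the RLE factors of DESeq2 57 and 53, with a median of -0.13. The difference of the Il22 ratio between Cd3-positive and Cd3-negative cells passed for none of the 10 genes by edgeR or DESeq2, with none below an unadjusted 0.05, where 0.99% of all genes were called, 0.376% higher and 0.613% lower. For Hk2 this difference was -0.06 ± 0.19 (adjusted p = 0.955).

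Genes around the pathway were read from 7 lists of 66 genes, of which 56 were tested between cell groups. In Ncr1-positive over Ccr6/Cd4-positive cells 1 rose and 4 fell, or 8.93% of the 56, against 4.62% of all genes. In Cd3-positive over Cd3-negative cells 7 rose and 9 fell, or 28.6%, against 15.2% of all genes. In Ncr1-positive over other Cd3-negative cells only Vegfa was called, and it fell.

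Among 12 tested genes of glycolysis and lactate handling outside the 10, Pfkfb3 fell in Ncr1-positive over Ccr6/Cd4-positive cells and none rose (list median 0.11). Pfkfb3 makes fructose 2,6-bisphosphate, the activator of phosphofructokinase. It had 43.3 and 43.6 CPM in Ncr1-positive cells, against 160 and 117 in Ccr6/Cd4-positive cells, or 3.09-fold lower (log2 ratio -1.63 ± 0.28, adjusted p = 0.000513). It ran opposite to Pfkp, a form of the enzyme that fructose 2,6-bisphosphate activates. Pfkp was 1.77-fold higher in the same comparison. In Cd3-positive over Cd3-negative cells Slc16a1 and Gapdh rose and Pfkfb3 and Ldhb fell (list median -0.11). Slc16a1, which encodes the lactate carrier MCT1, had 23.6 and 23.2 CPM in Cd3-positive cells, against 9.72 and 5.74 in Ncr1-positive, 12.6 and 0 in Ccr6/Cd4-positive and 4.01 and 3.81 in other Cd3-negative cells (log2 ratio 1.96 ± 0.33, adjusted p = 0.000121). Gapdh, the dehydrogenase between aldolase and Pgk1, was 1.23-fold higher (0.30 ± 0.08, adjusted p = 0.0139). Ldhb, the lactate dehydrogenase chain that favours pyruvate, was 2.95-fold lower (-1.56 ± 0.51, adjusted p = 0.0380) on 19 UMIs in Cd3-positive cells, and Pfkfb3 2.95-fold lower (-1.56 ± 0.18, adjusted p = 7.03e-07). Gapdh lost its call against the other Cd3-negative cells alone (0.25, adjusted p = 0.0984).

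Brakes on glucose uptake moved in Cd3-positive cells in opposite directions. Txnip and Arrdc4 encode related arrestins that restrain glucose uptake. Txnip had 164 and 101 CPM in Cd3-positive cells, 59.8 and 34.5 in Ncr1-positive, 21.02 and 26.0 in Ccr6/Cd4-positive and 68.2 and 54.5 in other Cd3-negative cells, and was 3.39-fold higher (log2 ratio 1.76 ± 0.16, adjusted p = 1.35e-08). Arrdc4 had 60.6 and 56.3 CPM in Cd3-positive cells, 182 and 209 in Ncr1-positive, 256 and 227 in Ccr6/Cd4-positive and 210 and 185 in other Cd3-negative cells, and was 3.45-fold lower (-1.79 ± 0.13, adjusted p = 1.70e-10). For both genes the Cd3-positive values were separate from every other group. Slc2a6, a further hexose carrier, had 8.77 and 7.57 CPM in Cd3-positive cells, 17.2 and 24.1 in Ncr1-positive, 88.3 and 65.0 in Ccr6/Cd4-positive and 17.2 and 23.4 in other Cd3-negative cells. It was 3.69-fold lower in Cd3-positive cells against the equally weighted Cd3-negative groups (-1.88 ± 0.27, adjusted p = 1.88e-05). In Ncr1-positive over Ccr6/Cd4-positive cells it was 3.72-fold lower (-1.90 ± 0.39, adjusted p = 0.00340). These were 1 higher and 2 lower of 6 tested carriers and brakes in Cd3-positive cells (list median -0.16), and 0 higher and 1 lower in Ncr1-positive over Ccr6/Cd4-positive cells (list median 0.30).

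Few genes were called in the lists of pyruvate entry and the pentose branch. Of 9 tested genes of pyruvate entry into mitochondria, Pdp1, a phosphatase that activates pyruvate dehydrogenase, fell 3.00-fold in Cd3-positive cells (-1.58 ± 0.35, adjusted p = 0.00224; list median 0.02). Of 7 genes of the pentose phosphate branch, G6pdx, its first enzyme, fell 1.63-fold (-0.70 ± 0.19, adjusted p = 0.00969; list median -0.15). Neither list held a call in Ncr1-positive over Ccr6/Cd4-positive cells, with list medians of 0.42 and 0.15.

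On the HIF side, Epas1, which encodes HIF-2α, rose in both comparisons. It had 212 and 359 CPM in Cd3-positive cells, 224 and 292 in Ncr1-positive, 118 and 97.4 in Ccr6/Cd4-positive and 204 and 258 in other Cd3-negative cells. The Ccr6/Cd4-positive cells were below all the others, which overlapped. Epas1 was 2.42-fold higher in Ncr1-positive over Ccr6/Cd4-positive cells (log2 ratio 1.28 ± 0.24, adjusted p = 0.00123) and 1.55-fold higher in Cd3-positive over Cd3-negative cells (0.63 ± 0.12, adjusted p = 0.000561), where the call was lost against the other Cd3-negative cells alone (0.30, adjusted p = 0.116). Egln3, a prolyl hydroxylase that marks HIF for degradation, was 1.43-fold lower in Cd3-positive cells (-0.51 ± 0.14, adjusted p = 0.0142), and this call was lost there too (-0.18, adjusted p = 0.515). Arnt, the partner of HIF-1α, Egln1, Egln2, Vhl and Hif1an were not called in either comparison. The list medians were 0.26 in Cd3-positive over Cd3-negative and 0.18 in Ncr1-positive over Ccr6/Cd4-positive cells.

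Of the HIF-1 targets outside glycolysis, Vegfa had the widest differences. Vegfa, which encodes an angiogenic growth factor and is a classical HIF-1 target, had 35.1 and 36.4 CPM in Cd3-positive cells, 27.7 and 33.3 in Ncr1-positive, 425 and 487 in Ccr6/Cd4-positive and 86.8 and 65.1 in other Cd3-negative cells. The Ccr6/Cd4-positive cells, lowest in Pfkp and Aldoa, were thus by far the highest in Vegfa. Vegfa was 14.2-fold lower in Ncr1-positive over Ccr6/Cd4-positive cells (log2 ratio -3.83 ± 0.22, adjusted p = 6.94e-11), 2.55-fold lower in Ncr1-positive over other Cd3-negative cells (-1.35 ± 0.21, adjusted p = 0.000526) and 2.70-fold lower in Cd3-positive over Cd3-negative cells (-1.43 ± 0.16, adjusted p = 3.36e-07). Mxi1, a MYC antagonist, was 2.19-fold lower in Ncr1-positive over Ccr6/Cd4-positive cells (-1.13 ± 0.32, adjusted p = 0.0450). Ddit4, an inhibitor of mTOR signalling, was 2.10-fold higher in Cd3-positive cells (1.07 ± 0.26, adjusted p = 0.00584), and Bhlhe40, a transcription factor, 1.25-fold lower (-0.32 ± 0.07, adjusted p = 0.00239). Of 8 tested targets these are 0 higher and 2 lower in Ncr1-positive over Ccr6/Cd4-positive cells (list median -0.53) and 1 higher and 2 lower in Cd3-positive cells (list median -0.16).

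Of 7 tested drivers of glycolysis, Irf4 and Slc3a2 rose in Cd3-positive cells and none was called in Ncr1-positive over Ccr6/Cd4-positive cells. Irf4, a transcription factor that supports glycolysis in activated T cells, had 8.005 and 10.9 CPM in Cd3-positive cells, 3.74 and 0 in Ncr1-positive, 0 and 0 in Ccr6/Cd4-positive and 5.11 and 3.27 in other Cd3-negative cells (adjusted p = 0.0148). No fold is given, since a group was at 0. Against the other Cd3-negative cells alone the call on Irf4 was lost (adjusted p = 0.106). Slc3a2, the heavy chain of amino acid carriers, was 1.23-fold higher (log2 ratio 0.30 ± 0.09, adjusted p = 0.0272). Myc, Mtor, Rptor, Rheb and Akt1 were not called. The list medians over the 6 genes with UMIs in every group were 0.05 in Cd3-positive over Cd3-negative and 0.10 in Ncr1-positive over Ccr6/Cd4-positive cells.

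**Figure D4:**
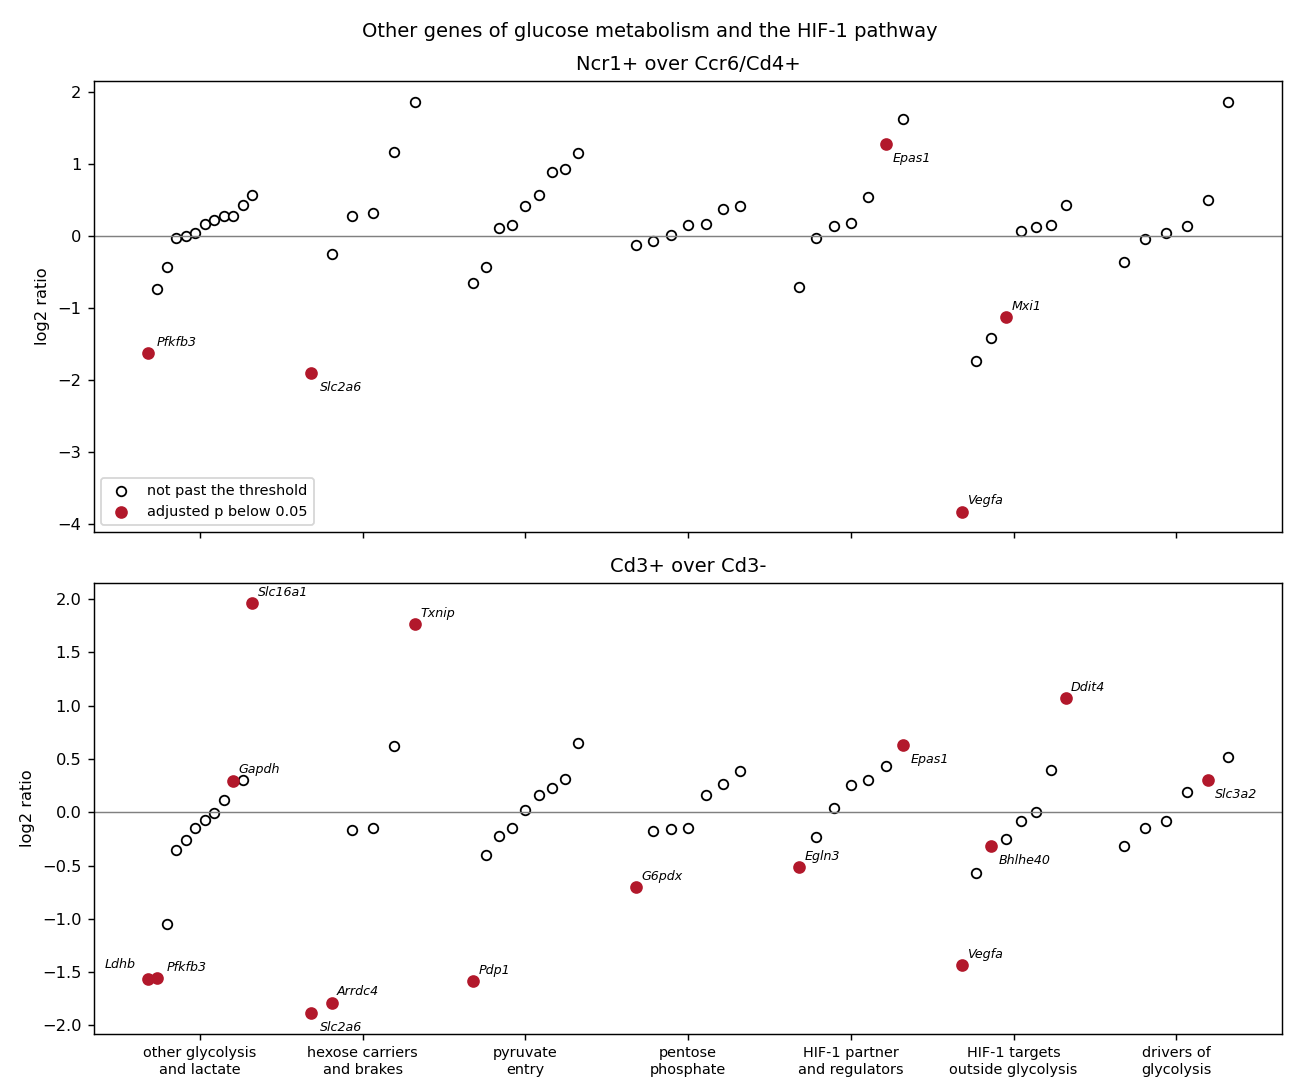
Log2 ratios (edgeR) of 55 tested genes of the 7 lists, a point per gene and sorted within a list, in Ncr1-positive over Ccr6/Cd4-positive cells (top) and Cd3-positive over Cd3-negative cells (bottom), with filled and named points where the adjusted p was below 0.05. Vegfa is far below 0 in the top panel (-3.83), and Slc16a1 (1.96) and Txnip (1.76) are the highest in the bottom panel. Irf4 is left out because a group was at 0.

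Several calls on genes of these lists were lost under other settings, given here by adjusted p. With DESeq2 these were Ldhb (0.0830), Egln3 (0.0974), Ddit4 (0.176), Irf4 (0.123) and Slc3a2 (0.135), all in Cd3-positive over Cd3-negative cells. With the stricter cell filter Ldhb (0.0639), Slc3a2 (0.0825) and, in Ncr1-positive over Ccr6/Cd4-positive cells, Mxi1 (0.0631) were lost, and without a filter on low counts Mxi1 (0.0782). With cells thinned before grouping Ddit4 (0.162) and G6pdx (0.132) were lost in Cd3-positive cells, and Mxi1 (0.0562), Pfkfb3 (0.238) and Slc2a6 (0.213) in Ncr1-positive over Ccr6/Cd4-positive cells. With T cell receptor genes in the rule Gapdh (0.0623), G6pdx (0.913), Ddit4 (0.988), Bhlhe40 (0.599) and Slc3a2 (0.240) were lost in Cd3-positive cells, Pfkfb3 (0.241) and Slc2a6 (0.157) in Ncr1-positive over Ccr6/Cd4-positive cells, and Vegfa (0.0680) in Ncr1-positive over other Cd3-negative cells. The calls on Arrdc4, Txnip, Slc2a6, Pfkfb3 and Vegfa in Cd3-positive cells, and on Vegfa in Ncr1-positive over Ccr6/Cd4-positive cells, were made in every alternative that gave a test, the fit without the block included.

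Along Il22 in Cd3-negative cells, 1 of 48 tested genes of these lists rose and 1 fell, or 4.17%, against 1.94% of all genes. Vegfa rose 2.27-fold in Il22-high over Il22-zero cells, with 166 and 131 CPM in Il22-high cells, against 73.9 and 57.6 in Il22-zero cells (log2 ratio 1.18 ± 0.20, adjusted p = 3.90e-05). With the makeup by group held fixed, each group at equal weight, it was 0.68 (adjusted p = 0.451). Vegfa and Il22 were both highest in Ccr6/Cd4-positive cells, and the part of group makeup in the rise of Vegfa was not tested on its own. Txnip fell 2.56-fold, with 44.0 and 8.58 CPM in Il22-high cells, against 72.0 and 56.8 in Il22-zero cells (-1.36 ± 0.34, adjusted p = 0.0133). The call on Txnip was lost with DESeq2 (adjusted p = 0.245), without cells of other types (-0.99, adjusted p = 0.139), at 500 UMIs (0.426), with T cell receptor genes in the rule (0.134) and with the group held fixed (0.114).

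The genes whose pattern over the 8 sums of 4 groups and 2 samples was most like the summed level of the 10 were sought among 3072 genes with a mean of at least 50 CPM that are in none of the lists. On log2 levels centred within each sample, the 5 highest Pearson correlations with the sum were those of Inpp4a (0.987), Pik3r1 (0.987), 4930503L19Rik (0.985), Nucb1 (0.984) and Hmgb1 (0.984). The 8 points share 2 libraries, and the genes were picked as the highest of many. Pik3r1, a regulatory subunit of PI3-kinase, averaged 837 CPM in Ncr1-positive cells, 686 in other Cd3-negative, 536 in Cd3-positive and 375 in Ccr6/Cd4-positive cells. Inpp4a, an inositol polyphosphate phosphatase gene, averaged 79.9 in Ncr1-positive, 73.9 in other Cd3-negative, 53.3 in Cd3-positive and 41.7 in Ccr6/Cd4-positive cells. The sum is in plain CPM and, with Hk2 at 39.6% of its UMIs, is partly set by that gene, so correlations of the 10 genes with it are not given.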

How the data were processed

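The authors' deposited tables hold UMI counts per cell and gene, not normalised, made by BD's WTA Multiplex Rhapsody pipeline, version 1.8, from a GRCm38 reference annotated with GENCODE M19, per the file headers. The submitters' processing notes also name HISAT2 2.0.5, Bowtie2, mm10 and GRCm38.p6. A second deposited file gives each cell's sample tag as called by the pipeline (a label, not a measurement). Cells of tag 6 (3427 of 15793 in its library) and tag 12 (3954 of 16531) were used. Cells of the other tags, tag multiplets (572 and 987) and undetermined cells were not analysed here, and no doublet caller was run beyond the tags.

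The genes, lists and tests were chosen with earlier results of these data known. Counts were summed per sample and cell group (8 sums, or 12 for the Il22 bins) and tested with edgeR 4.0.16 in R 4.3.3 (quasi-likelihood test, TMM scaling, filterByExpr, sample as a block, Benjamini-Hochberg adjustment over all genes tested, threshold 0.05). The sample is a block because all groups of a sample come from 1 library. Same-numbered sums deviated together, with correlations of 0.25 to 0.78 over 6 pairs of cell groups and 0.12 to 0.64 over 15 pairs of Il22 sums. Genes that define a group were left out of the tests, and Il22 and these genes also out of the library sizes of the Il22 fit. The fits had 3 and 5 residual degrees of freedom. The scripts were tested on simulated data. Levels are plain CPM. Single-sample ratios are differences of log2 CPM scaled by TMM, with a prior count of 2, so they can depart from the ratio of printed levels. SEs of log2 ratios come from the edgeR fits over the 2 samples, and only the bars of the plot by Il22 step cover counting error alone. Genes of the lists are named where called, up to 4 per list and comparison. Gene positions came from GENCODE M21. Alternatives were DESeq2 1.42.0, RLE factors, no filter, no block, other cell filters, group rules, thinning depths and thresholds, and each sample alone.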

Additional observations from a re-analysis of the deposited data

Results flagged for a closer look

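The change of Vegfa with Il22 differed between Cd3-positive and Cd3-negative cells by the test of the difference itself (edgeR, log2 difference 3.40 ± 0.51, adjusted p = 5.31e-06). In Cd3-positive cells Vegfa had 259 and 336 CPM (UMIs per 1000000) in Il22-high cells, on 25 UMIs in all, against 11.4 and 9.32 in Il22-zero cells (log2 ratio 4.58, adjusted p = 2.91e-10). With all UMIs of the same cells the difference was 1.42 (adjusted p = 0.140) and at 1500 UMIs -0.27 (adjusted p = 0.939). The call was also lost at 500 UMIs and with T cell receptor genes in the rule. The change of Arrdc4 with Il22 differed in the same way (log2 difference 2.06 ± 0.45, adjusted p = 0.00613), with 207 and 247 CPM in Il22-high and 37.7 and 27.97 in Il22-zero Cd3-positive cells. For Arrdc4 the call was lost with the stricter cell filter (adjusted p = 0.0903), without cycling cells (0.112), without the sample as a block (0.213) and with T cell receptor genes in the rule (0.293). Il22-high at 8 gave no test over both samples for either gene, since replicate 1 then held under 20 such Cd3-positive cells. In Cd3-negative cells Arrdc4 had 243 and 242 CPM in Il22-high and 197 and 159 in Il22-zero cells. The Il22-high Cd3-positive cells, 39 and 45 in number, had T cell markers at 2433 and 1973 CPM, against 4015 and 3139 in Il22-zero Cd3-positive cells, and the part of this in the differences was not tested.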

How the results depend on the processing

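Of the 3 genes called in Ncr1-positive over Ccr6/Cd4-positive cells, between 2 and 3 were called under 8 alternatives. Without the sample as a block 0 were called there, 0 in Cd3-positive over Cd3-negative cells and 0 along Il22, and the all-gene counts were 10, 173 and 0 in these 3 comparisons. Of the 4 calls between Cd3-positive and Cd3-negative cells, 2 were left with DESeq2, 2 with the stricter cell filter, 2 with cells thinned before grouping and 0 when T cell receptor genes also set the group, where the log2 ratio of Hk2 was 0.0147 and that of G6pdx 0.0780, both of the other sign. The 1 call along Il22 in Cd3-negative cells became 0 with DESeq2, without a filter on low counts, with the stricter cell filter, with T cell receptor genes in the rule, with Il22-high at 8 or at 2, at 500 UMIs and with the cell group held fixed. Hk1 there was -0.0303 with T cell receptor genes in the rule and -0.15 at 500 UMIs. In Cd3-positive cells the count along Il22, 0, was 1 with T cell receptor genes in the rule (Hk2), 1 with all UMIs (Hk2) and 1 without cells of other types (Aldoa, lower). Hk2 was -0.12 there with Il22-high at 8, where only replicate 2 had an Il22-high sum. The Il22 difference for Hk2 was 0.10 with DESeq2, 0.10 with RLE factors, 0.0891 with the stricter filter, 0.44 with T cell receptor genes in the rule, 0.0927 with Il22-high at 2 and 0.11 with all UMIs. That for Vegfa was -0.27 at 1500 UMIs. Counts of all genes called ran from 10 to 556, 0 to 226 and 173 to 2011 between groups (445, 117 and 1468 in the tests reported), and from 0 to 356, 19 to 394 and 5 to 87 along Il22 (139, 179 and 71). The ranges along Il22 in Cd3-positive cells and for the difference take in the fit with Il22-high at 8. The cause of these changes was not tested. With each sample alone, no gene of the 10 that was called reversed.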
